A study of Mus musculus with 4 samples.

Results

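Myc and 35 genes of ribosome biogenesis were followed through single-cell RNA sequencing of mouse tumours in which the injected cells carried or lacked Hnrnpa2b1. The 36 members were matched by gene symbol, and each was found among the 55450 features listed in every library. They were chosen by name and not by a measured value, and none of them was among the 2000 variable genes used to cluster the cells. MC38, the line injected, derives from a colon carcinoma of the mouse, and it was placed under the skin of the left flank of C57BL/6J mice at 8 weeks of age. One group received MC38 cells with a knockout (KO) of Hnrnpa2b1, whose product is an hnRNP that binds RNA, and the other received unedited wild-type (WT) MC38 cells. No edit in the mice themselves is stated, so the host cells of both groups are taken as unedited. Each group had 2 tumours, and the labels do not state whether the KO cells were 1 clone or a pool. The replicate in every test is the tumour, and the labels do not say what tumours of the same number share.

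Myc is a transcription factor that binds DNA as a partner of Max and is known to raise the output of ribosomes in growing cells. A ribosome begins in the nucleolus, where RNA polymerase I copies the ribosomal DNA into a long precursor RNA. Small nucleolar ribonucleoproteins (snoRNPs) then modify that precursor, the box C/D class by ribose methylation and the box H/ACA class by pseudouridylation, and further factors cut and fold it into the small and the large subunit. Colon carcinoma cells are known for high Myc activity, because the Wnt pathway that is often active in them drives the Myc gene.

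Libraries held between 114136609 and 153162562 unique molecular identifiers (UMIs, counts of captured RNA molecules), and 8648 to 11344 cells per tumour were analysed. Between 23 and 43 cell barcodes were shared by any pair of libraries. The epithelial markers meant to mark the tumour cells were nearly absent, with a sum over 12 markers of 46.5, 38.7, 55.2 and 57.6 CPM (counts scaled to 1000000 UMIs) in the WT pair (tumours 1 and 2) and the KO pair. The class called Xist-low below therefore rests on another rule, set after the data had been seen: clusters whose mean was under 1 UMI per 10000 for Xist, which female host cells express, and for the leukocyte gene Ptprc. It held 8188, 6724, 1252 and 2531 cells in the same order of tumours. Hnrnpa2b1 in these cells was at 565 and 550 CPM in WT and at 358 and 325 CPM in KO tumours, for a log2 fold change of −0.71 (SE 0.13, adjusted p = 0.0306, edgeR). Where the gene was edited is not given in the sources used here, and transcripts left over do not measure protein. Host classes named below are cells like that type by their markers.

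In Xist-low cells, the genes of ribosome biogenesis were higher in the KO tumours than in the WT tumours for every estimate, with a median log2 fold change of 0.34, against −0.01 over all 18027 genes tested. Over all those genes, 48.9% of estimates lay above 0. Of the 36 members, 4 passed the test and rose, and none fell. Among all genes tested, 4.28% rose and 4.14% fell. A further 17 members had an unadjusted p under 0.05 without passing the adjusted threshold of 0.05, so that 21 lay below that unadjusted value. In 28 of 36 members both KO tumours lay above both WT tumours, which was true of 29.7% of all genes tested. The members that rose were Rrp9, Fbl, Nop56 and Heatr1, of which all but Heatr1 belong to the box C/D snoRNP. With any 1 tumour left out, Fbl, Nop56 and Heatr1 no longer passed, while Rrp9 passed each time. UMIs per cell differed as well, with medians of 12262 and 12310 in WT against 40840.5 and 32396 in KO tumours. Different clusters held most of the class in each group, as described below.

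Myc (GRCm38 chr15:61985391-61990374, plus strand) stood at 58.1 and 47.6 CPM in the Xist-low cells of WT tumours 1 and 2 and at 80.5 and 70.9 CPM in the cells of KO tumours 1 and 2. Both KO tumours lay above both WT tumours, although the WT tumours also differed from each other. Its log2 fold change was 0.52 (SE 0.13), and it did not pass the test (adjusted p = 0.0619, edgeR), although it did with DESeq2 (adjusted p = 0.0157). CPM in this and the next paragraphs are scaled by edgeR's TMM factors.

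RNA polymerase I is the enzyme that copies the ribosomal DNA. Its largest subunit, Polr1a (chr6:71909053-71984935, plus strand), measured 50.6 and 43.8 CPM in WT against 56.1 and 59.8 CPM in KO tumours, a log2 fold change of 0.30 (SE 0.11, adjusted p = 0.146). Polr1b, the second-largest subunit, gave 0.38 (SE 0.11, adjusted p = 0.0855). Neither passed the test, and neither gene's groups overlapped.

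Nucleolar scaffold proteins hold the sites of ribosome assembly together, and some of them act on the ribosomal DNA. Npm1, or nucleophosmin, a nucleolar chaperone (chr11:33152287-33163206, minus strand), measured 2599 and 2256 CPM in WT against 2334 and 2742 CPM in KO tumours. Its groups overlapped, and its log2 fold change was 0.06 (SE 0.18, adjusted p = 0.840). Ncl, or nucleolin, reached 2011 and 1548 against 2176 and 2480 CPM, a log2 fold change of 0.39 (SE 0.19, adjusted p = 0.226). Nolc1, a chaperone of snoRNPs, Gnl3, or nucleostemin, and Mybbp1a likewise had no overlap between groups, and the RNA helicase Ddx21 had one. None of the 6 passed the test, and their median was 0.28.

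Of the 4 box C/D snoRNP proteins 3 passed the test and rose, and the group's median was 0.50. Rrp9, a protein particular to the U3 snoRNP that guides the first cuts of the precursor (chr9:106475963-106485424, plus strand), measured 36.9 and 34.6 CPM in WT against 59.6 and 61.7 CPM in KO tumours. Its log2 fold change of 0.76 (SE 0.10, adjusted p = 0.0159) was the largest of the 36. Fbl, or fibrillarin, the methyltransferase of the complex (chr7:28169710-28179269, plus strand), went from 144 and 137 CPM to 190 and 207 CPM, a log2 fold change of 0.50 (SE 0.11, adjusted p = 0.0481). Nop56, a scaffold of the same particle (chr2:130274430-130279313, plus strand), went from 147 and 143 CPM to 198 and 201 CPM, by 0.46 (SE 0.11, adjusted p = 0.0496). For these genes the spread within a group was small beside the gap between groups. Nop58, the partner of Nop56 (chr1:59684971-59719044, plus strand), measured 310 and 272 CPM in WT against 425 and 404 CPM in KO tumours and missed the threshold (log2 fold change 0.51, SE 0.13, adjusted p = 0.0595).

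The box H/ACA snoRNP proteins gave a median of 0.41, and none of the 3 passed. Dkc1, or dyskerin, the pseudouridine synthase (chrX:75095854-75109777, plus strand), measured 153 and 135 CPM against 185 and 198 CPM. Gar1 (chr3:129824912-129831396, minus strand) measured 97.4 and 92.4 against 120 and 126 CPM. Nhp2 (chr11:51619735-51623714, plus strand) measured 252 and 184 against 294 and 348 CPM. Their log2 fold changes were 0.41 (SE 0.12, adjusted p = 0.0804), 0.38 (SE 0.11, adjusted p = 0.0727) and 0.56 (SE 0.18, adjusted p = 0.0998), and both KO tumours lay above both WT tumours for each.

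Of the 12 factors of the small subunit, 1 rose. Heatr1, a part of the earliest complex on the precursor (chr13:12395027-12440289, plus strand), measured 38.8 CPM in both WT tumours against 51.1 and 52.8 CPM in KO tumours, a log2 fold change of 0.42 (SE 0.10, adjusted p = 0.0481). Wdr43, of the same complex (chr17:71615895-71659031, plus strand), measured 241 and 181 CPM against 206 and 218 CPM. Its groups overlapped, with the smallest estimate of the 36 (0.01, SE 0.16, adjusted p = 0.987). Nob1, the nuclease of the last cut in the small-subunit RNA (chr8:107412486-107425051, minus strand), also overlapped, at 83.5 and 65.3 against 83.9 and 79.1 CPM. The group's median was 0.23. Imp4, a protein of the U3 particle, had the highest estimate of the group at 0.50 (SE 0.13, adjusted p = 0.0619), from 61.2 and 51.3 CPM to 74.4 and 85.1 CPM.

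None of the 8 factors of the large subunit passed the test, and their median was 0.33. Mrto4, which is related to a protein of the ribosomal stalk (chr4:139347435-139352576, minus strand), measured 139 and 109 CPM against 166 and 187 CPM, a log2 fold change of 0.51 (SE 0.15, adjusted p = 0.0823). Pes1, Bop1 and Wdr12, which form 1 complex in large-subunit assembly, gave 0.19, 0.40 and 0.33. Nop2, a methyltransferase of large-subunit RNA, gave 0.34 (SE 0.10, adjusted p = 0.0917). In 7 of the 8, both KO tumours lay above both WT tumours, with Nop16 as the exception.

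**Figure D1:**
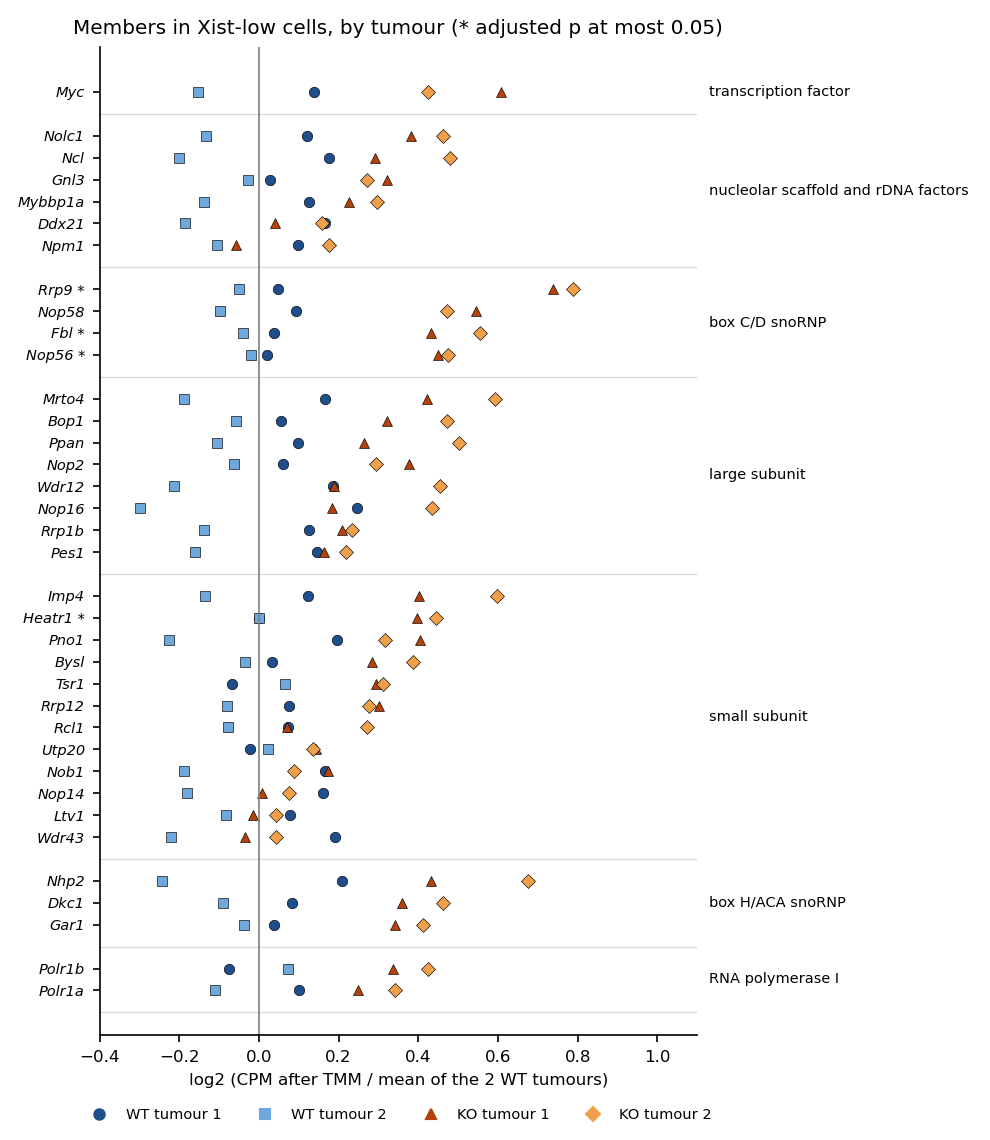
Level of each of the 36 members in the Xist-low cells of the 4 tumours, as the log2 ratio of its CPM after TMM to the mean of the 2 WT tumours, grouped by role. Blue circles and squares are WT tumours 1 and 2, orange triangles and diamonds KO tumours 1 and 2, and an asterisk marks the 4 members that rose. For most members WT tumour 2 is lowest, and the 4 box C/D members show both KO tumours clear of both WT tumours.

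The KO and WT tumours were then compared at like numbers of UMIs per cell, because the share of a cell's UMIs that came from these genes moved with that number. In WT tumour 1 the members took 56.3 UMIs per 10000 in Xist-low cells of 5000 to 10000 UMIs and 94.9 in cells of 20000 to 40000 UMIs. In WT tumour 2 these shares were 53.4 and 80.1, in KO tumour 1 they were 78.1 and 85.8, and in KO tumour 2 they were 73.8 and 93.4. Each of the 36 members had a higher share in the deeper of these cells in both WT tumours, against 43.0% and 49.5% of all genes with at least 100 UMIs. In the KO tumours 24 and 27 members did, against 46.1% and 47.0% of such genes, although only 21 and 33 KO cells lay in the lower range.

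When the test was restricted to Xist-low cells of 10000 to 30000 UMIs, which were 5036, 3760, 281 and 921 cells, no member passed it, while 1.66% of all genes rose. The median log2 fold change was then 0.14, with 31 of 36 estimates above 0 and 3 at an unadjusted p under 0.05. Those 3 were Rrp9 (0.48, SE 0.15, adjusted p = 0.135), Myc (0.45, SE 0.18, adjusted p = 0.197) and Ppan (0.38, SE 0.16, adjusted p = 0.226). Median depth inside this range still differed, at 15011.5 and 15807.5 UMIs in WT against 22604 and 24765 in KO tumours. When each cell was instead thinned to 5000 UMIs, which left out 403 and 677 shallower cells in WT and 35 and 80 in KO tumours, 7 members rose, against 4.9% of genes, among them Rrp9, Fbl and Nop56. Thinning draws UMIs at random within each cell and leaves its expected share of member UMIs unchanged. It therefore cannot remove a link between that share and a cell's depth. Whether depth per cell accounts for the difference between groups was not tested.

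Myc was read by the same ranges of UMIs per cell. In cells of 10000 to 20000 UMIs it took 0.61 and 0.44 UMIs per 10000 in WT against 1.06 and 0.86 in KO tumours. In cells of 20000 to 40000 UMIs the values were 0.54 and 0.53 against 0.86 and 0.66, and in cells over 40000 UMIs they were 0.47 and 0.46 against 0.84 and 0.73. Both KO tumours lay above both WT tumours in each of these ranges. The summed members took 82.5 and 63.8 against 74.7 and 75.5 UMIs per 10000 in cells of 10000 to 20000 UMIs, where WT tumour 1 was the highest of the 4. That tumour was also highest at 20000 to 40000 UMIs, at 94.9 and 80.1 in WT against 85.8 and 93.4 in KO tumours. In cells over 40000 UMIs the values were 77.3 and 78.2 against 95.7 and 99.2. There, as in the ranges under 10000 UMIs, both KO tumours lay above both WT tumours.

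**Figure D2:**
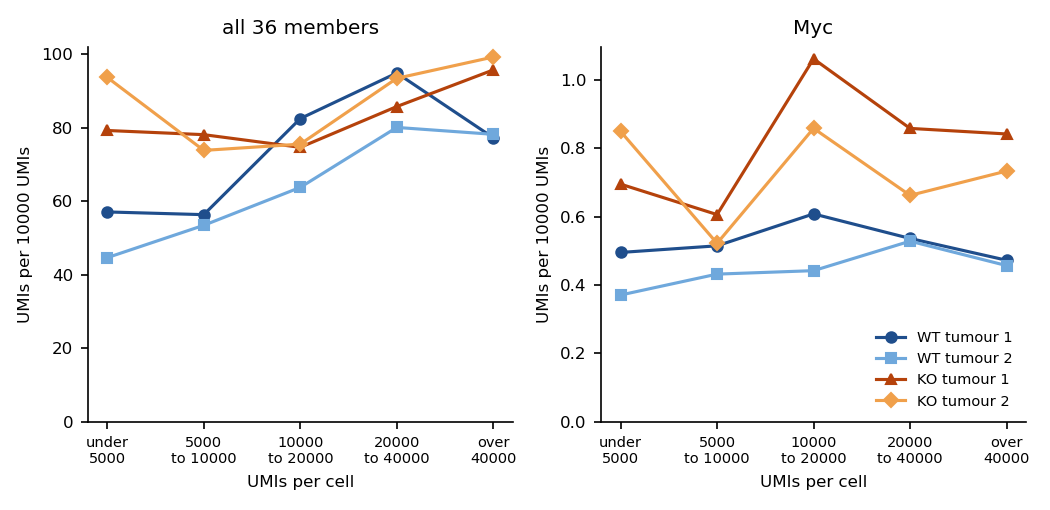
UMIs of all 36 members (left) and of Myc (right) per 10000 UMIs in Xist-low cells, by range of UMIs per cell and tumour, for ranges with at least 20 cells. The left curves of WT tumours 2 and 1 climb from 44.6 and 57.1 in the shallowest cells to 80.1 and 94.9. Those peaks are at 20000 to 40000 UMIs, and over 40000 UMIs the curves stand at 78.2 and 77.3. The KO curves of Myc lie above both WT curves in every range. At 5000 to 10000 UMIs they come close, with KO tumour 2 at 0.522 and WT tumour 1 at 0.515. The KO values there rest on 9 and 13 Myc UMIs.

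Xist-low cells fell into several clusters, and the groups drew on different ones. Cluster 0, led by Gja4, Nppb and Cxcl10, made up 6.44% and 11.9% of the class in WT and 88.9% and 88.1% of it in KO tumours. Cluster 2, whose leading genes include Prelp, of the matrix, and Lbp, of the acute phase, held 21.1% and 33.1% in WT against 1.20% and 1.15% in KO tumours. In the WT tumours cluster 2 took 48.2 and 42.9 member UMIs per 10000, and cluster 0 took 93.4 and 80.0. Cluster 2 was lowest in both WT tumours for 24 of 36 members, and cluster 0 highest for 20, among the 6 clusters with at least 50 cells in each WT tumour. Cluster 2 was also shallow, with medians of 8388.5 and 9568.5 UMIs per cell there, against 15188 and 18881 in cluster 0. These orders are descriptions, since the clusters came from the same cells. They were not counted over all genes, so they do not show whether they are particular to the members.

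Within cluster 0, which alone had at least 50 cells in each tumour, no member passed the test, against 0.614% of genes that rose there. The median was 0.11, 30 of 36 estimates lay above 0 (48.9% over all genes), and 4 members had an unadjusted p under 0.05 with edgeR and 3 with DESeq2. Rrp9 measured 44.8 and 45.1 CPM in WT against 60.8 and 61.8 in KO tumours there, a log2 fold change of 0.45 (SE 0.11, adjusted p = 0.111). Myc measured 64.1 and 59.1 against 84.5 and 74.6 CPM, by 0.37 (SE 0.12, adjusted p = 0.185). For both genes the KO tumours lay above the WT tumours within this cluster, with a smaller estimate than in the whole class. KO cells were also deeper within it, with medians of 42019 and 33009 UMIs against 15188 and 18881 in WT tumours. With the Prelp and Lbp cluster left out of the Xist-low class, an alternative added after seeing the data, 1 member rose, Rrp9, against 2.68% of genes, and the median was 0.23.

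Clusters 1, 2, 3 and 5 held few KO cells, between 15 and 133 per tumour, and were compared by their order alone. Clusters 20 and 24, with 1 to 11 KO cells, were not compared. In clusters 1, 2, 3 and 5 both KO tumours lay above both WT tumours in plain CPM for 28, 21, 23 and 24 of 36 members, and in cluster 0 for 17. Over all genes with at least 100 UMIs the shares were 28.4%, 29.0%, 28.4%, 24.7% and, in cluster 0, 27.8%. In all 5 clusters this held for 10 members, against 4.29% of such genes: Rrp9, Fbl, Nop56, Nop58, Dkc1, Nolc1, Polr1a, Bop1, Ppan and Imp4. All 4 box C/D proteins are among them. Rrp9, for example, stood in cluster 2 at 20.8 and 20.4 CPM in WT against 33.4 and 27.9 in KO tumours, the latter from 10 and 15 UMIs. Myc was not: in cluster 1 it stood at 57.6 and 51.2 CPM in WT against 52.0 and 35.8 in KO tumours, and in cluster 3, led by cell cycle genes, at 57.9 and 50.4 against 40.0 and 32.5. The clusters share tumours and libraries, so they do not count as repeats of each other. Median UMIs per cell in cluster 1 were 38201 and 23029 in KO against 11943 and 18129 in WT tumours. In cluster 2 they were 16873 and 19274 against 8388.5 and 9568.5, and in cluster 3, 39518 and 34795 against 17993 and 18864. In cluster 5 they were 22354.5 and 3641 against 6903 and 10473. The part of depth in these orders was not tested.

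Further genes of the same pathways were read from lists of related factors. Of 17 other genes of RNA polymerase I and ribosomal DNA transcription, 1 rose, Polr2h, a subunit shared by the nuclear RNA polymerases (0.49, SE 0.10, adjusted p = 0.0362), and the list's median was 0.22. Of 46 other snoRNP and small-subunit factors 2 rose, with a median of 0.19. They were Noc4l (0.67, adjusted p = 0.0278) and Snu13, the protein that binds the box C/D motif itself, at 271 and 274 CPM in WT against 386 and 390 in KO tumours (0.51, SE 0.12, adjusted p = 0.0474). Of 44 other large-subunit factors 2 rose, Nmd3, the export adaptor of the large subunit, and Mdn1, a remodelling ATPase, with a median of 0.15. None fell in these 3 lists. Of all genes tested 4.28% rose, and the counts in these lists are close to that share. Of the 77 cytoplasmic ribosomal proteins, which these factors assemble into the particle, none passed, 13 of 77 estimates lay above 0, and the median was −0.16. At an unadjusted p under 0.05 there were 4.

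The network of proteins around Myc moved in both directions. Of its 22 listed genes 19 could be tested, of which 2 rose and 2 fell. Mxd4, which pairs with Max in place of Myc and represses transcription, fell from 35.4 and 39.3 CPM in WT to 12.4 and 12.6 in KO tumours, a log2 fold change of −1.58 (SE 0.11, adjusted p = 0.00654). Within cells of 10000 to 30000 UMIs its fold change was −0.88 (SE 0.18, adjusted p = 0.0462), and within cluster 0 it was −0.36 (SE 0.14, adjusted p = 0.251). Mxd4 stood highest in the Prelp and Lbp cluster, at 93.6 and 92.0 plain CPM in the WT tumours, against 16.6 and 14.8 in cluster 0. Pim1, a kinase known to cooperate with Myc, rose from 43.4 and 54.2 CPM to 91.3 and 92.5 (0.91, SE 0.13, adjusted p = 0.0200), and by 0.93 within the same range of UMIs (SE 0.15, adjusted p = 0.0259). Within cluster 0 its estimate was 0.62 (SE 0.15, adjusted p = 0.111). Ruvbl2, a helicase of chromatin and snoRNP assembly, rose by 0.48 (adjusted p = 0.0459), and Fbxw7, which marks Myc for degradation, fell by 0.53 on the log2 scale (adjusted p = 0.0417). In cells of 10000 to 30000 UMIs and in cluster 0, Ruvbl2 gave 0.12 and 0.11, and Fbxw7 −0.57 and −0.42. Neither gene passed in either.

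Of 30 Myc target genes of metabolism and translation, 4 rose and none fell, with a median of 0.43. Srm, an enzyme of polyamine synthesis, went from 176 and 133 CPM to 257 and 272 CPM (0.78, SE 0.16, adjusted p = 0.0378), and the others were Cycs, Umps and Pa2g4. Of 32 genes of the S and G2M phases of the cell cycle 7 rose and none fell, with a median of 0.40. Within cluster 0 that median was 0.03. Without the clusters led by such genes, 14 of the 36 members rose, against 9.63% of genes. Markers of other cells moved too. Of 12 T and NK cell markers 7 rose in the Xist-low cells, with sums of 12.7 and 5.82 CPM in WT against 43.3 and 30.8 in KO tumours, and 3 of 13 markers of mononuclear phagocytes rose, their sums being 191 and 77.0 in WT and 282 and 225 in KO tumours. Among the 10 markers of fibroblasts, Dcn and Col3a1 fell, while 6 of the 10 estimates lay above 0 and the median was 0.11. The sums over the 10 were 1814 and 2361 in WT and 1442 and 934 in KO tumours. Dcn and Col3a1 are also among the leading genes of Xist-low cluster 2, the Prelp and Lbp cluster. No marker of these 3 lists was at 0 in any tumour. Their part in the results for the members was not tested.

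The DNA before the RefSeq starts of the members was searched for CACGTG, the E-box that Myc and Max bind, which reads the same on both strands. RefSeq promoter entries on GRCm38.p6 were found for 31 of 36 members, not for Myc, Npm1, Fbl, Bop1 and Rrp12. The 250 bases before the start held the box in 2 of these 31, or 6.45%, and in 6.86% of all 27025 genes with an entry. The 2 sequences are shown because they are the ones with the box, and they were picked after their values had been seen. Capitals mark the box, whose first base lies 121 bases before the RefSeq start in Imp4 and 60 bases before it in Nop2, and both are on the plus strand.
Imp4, chr1:34439579-34439828: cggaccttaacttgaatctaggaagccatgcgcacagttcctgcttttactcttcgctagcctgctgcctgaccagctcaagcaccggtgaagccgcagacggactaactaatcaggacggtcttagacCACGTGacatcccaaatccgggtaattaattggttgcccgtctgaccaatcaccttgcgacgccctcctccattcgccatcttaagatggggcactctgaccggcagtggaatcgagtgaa
Nop2, chr6:125131633-125131882: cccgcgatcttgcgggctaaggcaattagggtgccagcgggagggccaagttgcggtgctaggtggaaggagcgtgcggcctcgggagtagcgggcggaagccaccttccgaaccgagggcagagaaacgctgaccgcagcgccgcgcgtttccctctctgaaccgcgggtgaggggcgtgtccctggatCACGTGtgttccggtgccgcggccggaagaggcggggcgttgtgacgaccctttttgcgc
Of the members that rose, Rrp9, Nop56 and Heatr1 were searched and do not have the box in this window, which says nothing of the same letters elsewhere, such as downstream of the start. For Rrp9 and Heatr1 the window lies inside the gene coordinates given above, so the bases before those coordinates were not searched. Windows of some other members, Nop58 among them, also hold bases of their transcripts.

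Compared with the host cells of the same tumours, Xist-low cells gave a larger share of their UMIs to these transcripts. Summed over the 36 members they held 8061, 6867, 9241 and 9496 plain CPM in the WT pair (tumours 1 and 2) and the KO pair. Mononuclear phagocytes held 3793, 2624, 2120 and 2008, and T and NK cells 4701, 3247, 2802 and 2998. These host cells were shallower, with medians of 3179 to 6957 and 2075 to 4160 UMIs per cell. In cells of 5000 to 10000 UMIs, Xist-low cells took 56.3, 53.4, 78.1 and 73.8 member UMIs per 10000, the KO values from 21 and 33 cells. T and NK cells of that range took 55.4, 45.3, 26.5 and 32.5, and mononuclear phagocytes 33.2, 23.2, 19.1 and 20.1. The part of depth in the differences between classes was not tested. All 4 tumours of the Xist-low class lay above all 4 of the mononuclear phagocytes for 34 members, with a median ratio of 3.06 and the exceptions Heatr1 and Pno1. Against T and NK cells this was so for 32 members, against fibroblasts for 33 and against CD8 T cells, the class with the fewest, for 25. No member lay below without overlap in any of the 11 host classes and subclasses compared. Ddx21 came closest, with a ratio of 0.90 to its level in CD8 T cells. The same order was not counted over all genes, so these counts do not show whether it is particular to the members. Myc itself was at 22.2, 13.4, 13.4 and 7.2 plain CPM in mononuclear phagocytes and at 41.0, 25.4, 21.4 and 25.5 in T and NK cells, against 56.5, 47.0, 85.1 and 69.7 in Xist-low cells. In fibroblasts Myc reached 68.8, 17.5, 57.0 and 50.6 CPM, and this range overlaps that of the Xist-low cells.

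**Figure D3:**
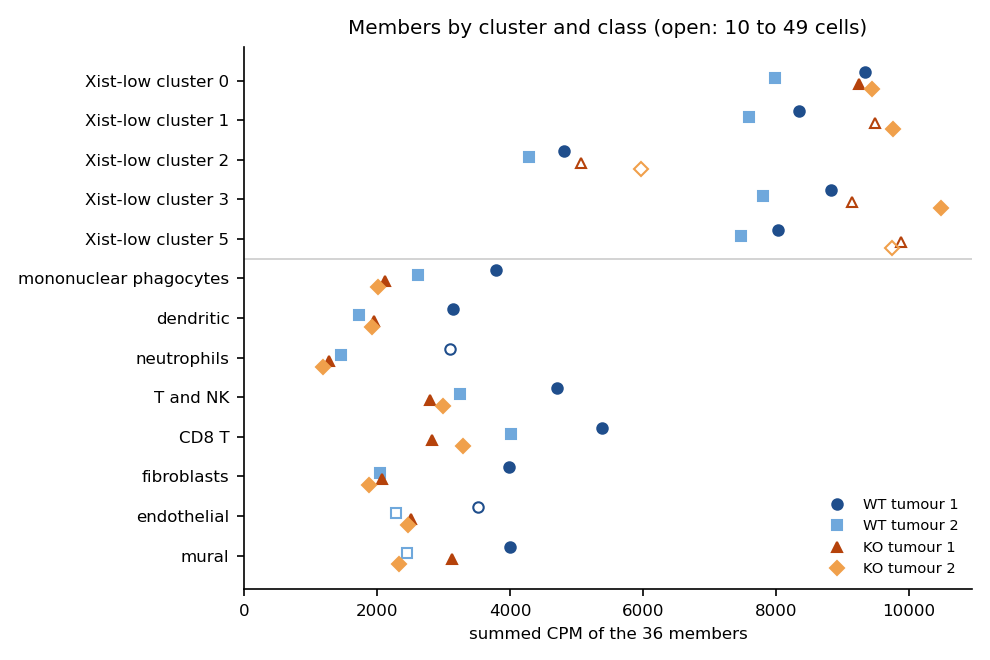
Summed plain CPM of the 36 members by Xist-low cluster (above the line) and host class (below it), 1 point per tumour, with open points for 10 to 49 cells. Of the 5 Xist-low clusters drawn, cluster 2 lies below the others and those others lie above the host classes drawn, and WT tumour 1 is the highest point of each host class drawn.

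In mononuclear phagocytes most estimates lay below 0. Of the 36 members 2 fell, against 4.61% of all 13839 genes tested that fell, none rose, against 3.89%, 32 estimates lay below 0, and the median was −0.52 (−0.02 over all genes, of which 48.4% had estimates above 0). Dkc1 fell from 51.2 and 40.0 CPM in WT to 23.8 and 23.2 in KO tumours, by 0.96 on the log2 scale (SE 0.19, adjusted p = 0.0312). Nob1 fell from 36.1 and 23.1 to 13.6 and 11.5 CPM, by 1.24 on the log2 scale (SE 0.25, adjusted p = 0.0361). Myc measured 21.9 and 13.0 against 13.3 and 7.62 CPM, with overlap between groups (−0.73, SE 0.35, adjusted p = 0.223). Rrp1b, at 0.80, and Heatr1, at 0.31, had positive estimates without passing the test with edgeR. With DESeq2 Rrp1b rose, against 5.91% of all genes. Of the S and G2M genes, 7 of 32 fell in these cells, with a median of −0.87. None of the 77 ribosomal proteins passed, with 31 at an unadjusted p under 0.05 and a median of −0.68. In the network around Myc, Mxd1, Mnt, Mxi1 and Pim1 rose and none of 19 fell. Different clusters of this class held its cells in each group. A cluster led by Pf4 and Mmp12 held 781 of 1446 and 435 of 1443 cells in WT against 213 of 3303 and 494 of 2437 in KO tumours, and one led by Ly6i, Nos2 and Arg1 held 236 and 407 cells in WT against 1734 and 1227 in KO tumours. A further cluster, led by mt-Tw and Krt10, had 48.87% of its cells scored as doublets, just under the 50% above which a cluster was left unnamed. Its remaining cells, 186 and 195 in WT and 345 and 198 in KO tumours, stayed in the class. The part of this make-up in the result was not tested, and no other clustering of this class was tried in the tests.

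In T and NK cells as 1 class, 2 members fell, against 1.12% of all genes tested that fell, and the median was −0.55. Gar1 went from 49.5 and 37.8 CPM to 22.5 and 23.3 CPM, by −0.95 (SE 0.19, adjusted p = 0.0401). Dkc1 went from 68.3 and 61.8 to 38.1 and 40.1 CPM, by −0.74 (SE 0.16, adjusted p = 0.0440). Both belong to the box H/ACA snoRNP. DESeq2 called neither, with 0.853% of genes falling by it, and 12 members had an unadjusted p under 0.05 with it, against 22 with edgeR. The class was made up of different cells in each group. CD8 T cells were 97 of 534 and 82 of 455 cells in WT against 958 of 2153 and 894 of 2216 in KO tumours, and 1 sub-cluster of NK cells held 129 cells of WT tumour 1 against 5 to 7 in each other tumour. Of 7 CD8 T cell markers Gzmk, Cd8b1 and Cd8a rose, and of 8 NK cell markers Ncr1 fell. Of 13 phagocyte markers Cd68 and C1qa rose, 10 had an unadjusted p under 0.05 and the median was 0.86, with sums of 902 and 968 CPM in WT against 1760 and 1562 in KO tumours. None of these 13 was at 0 in any tumour. The part of these differences in the result was not tested.

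No member passed in CD8 T cells, where 0.0386% of genes fell, nor in fibroblasts, where 0.0356% fell. The medians were −0.67 over 36 members and −0.45 over the 34 that passed the filter on low counts, and 17 and 3 members had an unadjusted p under 0.05. With DESeq2, 3 members fell in CD8 T cells, against 0.373% of genes, namely Ddx21, Npm1 and Wdr43, 11 had an unadjusted p under 0.05, and in fibroblasts it called none, with 3 under that value. CD8 T cells numbered 97 and 82 in WT against 958 and 894 in KO tumours. They came mostly from a cycling sub-cluster in WT tumour 1, 80 of 97, and mostly from 2 other sub-clusters in the KO tumours. Fibroblasts numbered 50 and 192 against 294 and 83.

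**Figure D4:**
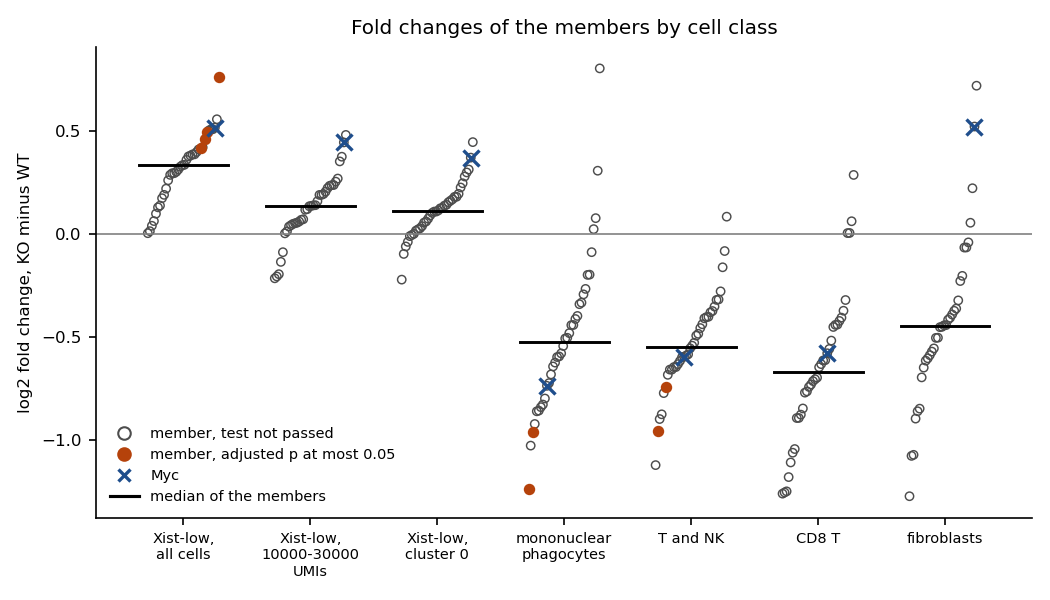
Log2 fold change, KO minus WT, of each member in 7 comparisons, sorted within each, where filled points passed the test, crosses are Myc and bars are medians. The medians run from 0.34 in all Xist-low cells over 0.14 at 10000 to 30000 UMIs and 0.11 in cluster 0 to −0.52, −0.55, −0.67 and −0.45 in the host classes.

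The calls in host cells depended on which tumours entered. Without WT tumour 1, no member fell in mononuclear phagocytes or in T and NK cells, against 1.03% and 0.648% of genes. The medians were then −0.24 and −0.32, with 12 members at an unadjusted p under 0.05 in each. Without WT tumour 2, 17 and 15 members fell, against 7.79% and 6.59% of genes. In T and NK cells none fell without KO tumour 1 either, with 4 at an unadjusted p under 0.05, against 1.2% of genes that fell. Free RNA, which droplets pick up from the suspension, was estimated from the 50 genes most particular to Xist-low cells. Its profile was taken as the sum over all barcodes of each tumour, not over empty droplets. That profile also holds host RNA, so its subtraction takes some of a class's own transcripts too. The estimate came to 35.1% and 27.6% of the UMIs of mononuclear phagocytes in WT against 18.4% and 12.5% in KO tumours, and to 32.5% and 16.7% against 17.6% and 14.8% of those of T and NK cells. WT tumour 1 was thus highest in this estimate, as in the members. After this share had been subtracted, an alternative added after seeing the data, no gene at all (0.0%) passed in mononuclear phagocytes. There 10 members had an unadjusted p under 0.05 and the median was −0.37. In T and NK cells 3 members fell, against 0.352% of genes, and the median was −0.58. Those 3 were Ddx21, Gar1 and Nhp2, while Dkc1 no longer passed.

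How far the change in Xist-low cells departed from that in mononuclear phagocytes was itself tested. It was positive and past the threshold for 25 of 36 members, against 8.74% of all genes tested, and negative for none, against 4.05%. Its median was 0.87, or 0.10 over all genes. Myc had a difference of 1.29 (SE 0.26, adjusted p = 0.0185) and Dkc1 the largest, 1.39 (SE 0.18, adjusted p = 0.00438). Rrp9 gave 1.08 (SE 0.17, adjusted p = 0.00759). Heatr1 gave 0.14 (SE 0.15, adjusted p = 0.605), its estimates being positive in both classes, and Rrp1b alone was below 0, at −0.56. Without WT tumour 1 no gene at all (0.0%) passed, 30 members had an unadjusted p under 0.05 and the median was 0.66. After subtraction of free RNA again no gene passed, with 21 members under that value and a median of 0.67.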

How the data were processed

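Droplet-based single-cell RNA sequencing was done on 4 tumours. The files deposited by the authors hold whole-number UMI counts per gene and barcode, not normalized. Per the labels' protocols, Cell Ranger 5.0.1 made the alignment to mm10, while the file headers name Cell Ranger 6.1.2; Seurat 5.1.0 is named in the submitters' processing notes without its role. All feature identifiers were found in GENCODE vM21, the source of coordinates.

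A barcode was kept with 300 or more genes, 500 or more UMIs and a mitochondrial share up to 20%. The cells of highest Scrublet score were removed at 0.8% per 1000 barcodes, 715 to 1288 per library; Scrublet's own threshold marked 0% to 4.36% and was not used. Cells were clustered with scanpy 1.11.5 (2000 variable genes, 30 components, 15 neighbours, Leiden resolution 1.0) and named when 3 markers were present in at least 10% of cells at 2 times the level elsewhere.

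UMIs were summed per tumour and class, and a class was tested where every tumour gave at least 50 cells, with edgeR 4.0.16 (TMM, filterByExpr, quasi-likelihood test) in R 4.3.3. P-values are two-sided and Benjamini-Hochberg adjusted over all genes tested, with a threshold of 0.05. The smallest p of an exact permutation test of this size is 0.333. Neutrophils, with 49 cells in WT tumour 1, were not tested. The steps were tested on simulated counts. DESeq2 1.42.0, other scaling, no filter, omission of each tumour, a replicate block and other cell selections were alternatives. Same-numbered tumours did not deviate together.

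The members and the lists were chosen with earlier results of these data known. Named with values are Myc, members that passed in a class, and in each role the member of highest CPM in Xist-low cells. Other members given with values were picked after those had been seen. Of other lists, at most 6 genes that passed could be named.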

Additional observations from a re-analysis of the deposited data

Results flagged for a closer look

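For 25 of 36 members the KO-WT change differed between Xist-low cells and mononuclear phagocytes by an edgeR interaction test, which is what marked them for a closer look. The 13 of them covered by the naming rule follow. The difference of log2 fold changes was 1.29 for Myc. It was 0.91 for Npm1 of the nucleolar scaffold and 0.71 for Polr1a of RNA polymerase I. In the box C/D snoRNP it was 0.84 for Fbl, 0.81 for Nop56, 1.31 for Nop58 and 1.08 for Rrp9. In the box H/ACA snoRNP it was 1.39 for Dkc1, 1.22 for Gar1 and 1.13 for Nhp2. For Wdr43, Nob1 and Mrto4 it was 0.73, 1.38 and 1.35. Without WT tumour 1 none of these 25 passed.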

How the results depend on the processing

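In Xist-low cells the number of members that rose was 13 with DESeq2 (of all genes 8.87% rose), 9 with no filter on low counts (5.9%), 2 with the replicate block (6.27%), 0 in cells of 10000 to 30000 UMIs, 7 after thinning to 5000 UMIs, 14 without the cycling clusters, and, as alternatives added after seeing the data, 1 without the Prelp and Lbp cluster and 23 with a crossed block (11.5%). Leaving out 1 tumour gave 1 to 8 (1.97% to 6.25%), and Rrp9 was among them each time. Doublet-scored cells kept, Leiden resolution 2.0 and upper-quartile scaling gave 3 to 4. Choosing the variable genes without the members also gave 4. Over all genes, 772 rose and 746 fell, against 1362 and 1283 with DESeq2 and 1826 and 2039 with no filter. In mononuclear phagocytes the number that fell was 5 with DESeq2 (of all genes 5.08% fell), 4 with upper-quartile scaling (5.66%), 10 with no filter (5.34%), 3 with the replicate block (6.32%), 0 after free RNA was subtracted (0.0%), 18 with the crossed block (13.0%) and 0 to 17 without 1 tumour (1.03% to 7.79%). In T and NK cells it was 0, 8 and 3 with DESeq2, no filter and the replicate block (0.853%, 2.5% and 2.68%) and 0 to 15 without 1 tumour (0.648% to 6.59%). In CD8 T cells it was 3 and 5 with DESeq2 and no filter (0.373% and 0.612%) and 0 to 12 without 1 tumour (0.0% to 3.59%), and in fibroblasts 0 to 4 (0.142% to 1.62%). In cluster 0, 1 rose with no filter (3.53%) and 1 with the crossed block (2.24%). The difference between Xist-low cells and mononuclear phagocytes passed for 7 members with the replicate block (2.82% of genes), 0 after free RNA was subtracted (0.0%) and 0 to 26 without 1 tumour (0.0% to 8.98%). In mononuclear phagocytes 1 member, Rrp1b, rose with DESeq2, no filter and the crossed block, against 5.91%, 5.89% and 11.5% of genes. The cause of these changes was not tested. Some members near 0 in Xist-low cells turned sign. Npm1 was −0.20 in cells of 10000 to 30000 UMIs, −0.046 without the Prelp and Lbp cluster and −0.055 to 0.18 without 1 tumour. Wdr43 was −0.029 with no filter, −0.21 in that range, −0.10 without that cluster and −0.19 to 0.22 without 1 tumour. Nob1 was −0.041 to 0.32 without 1 tumour. The difference for Nop56 became −0.48 after free RNA was subtracted. Same-numbered tumours did not deviate together from their group means. Correlations of their deviations over genes were −0.29 in Xist-low cells and −0.27 in mononuclear phagocytes, hence the crossed block. They were −0.05 to −0.07 in T and NK cells, CD8 T cells and fibroblasts. With 2 tumours per group this check cannot exclude that tumours of the same number share something. The crossed block joins WT tumour 1 with KO tumour 2 and WT tumour 2 with KO tumour 1. This pairing was chosen from the same counts and has no ground in the labels, so its larger counts of calls add no support. With 2 tumours in each group, depth of the KO cells and the free RNA estimated in the WT host cells move with the groups, which limits every comparison here.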
